A study of Sus scrofa with 6 samples.

Results

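Genes of hyaluronan turnover were read in longissimus dorsi, the long back muscle, of Tibetan pigs living at low or at high altitude. The set holds 10 genes: the synthases HAS1, HAS2 and HAS3, the breakdown genes HYAL1, HYAL2, HYAL3 and CEMIP2, and the receptors CD44, LYVE1 and HMMR. HYAL2 was put at the centre of the set because its FPKM differed between the altitudes in these libraries, and the others were listed by their place in the pathway. FPKM is corrected for gene length and for the number of fragments mapped in the library, so levels can be set side by side between genes. By their current Ensembl symbols, 8 of the 10 had a row among the 25322 genes of the table. The current IDs of HYAL1 and HAS3 matched no row, and both genes were not analysed here. HYAL2 was the row ENSSSCG00000011405. Because the set was built around this contrast, the altitude differences of its members are given as a description, with no test.

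All 6 animals were healthy female Tibetan pigs with no treatment named, and each library was 1 animal. The low altitude group was 3 pigs on the Chengdu plain at an average of 500 m, given normal daily feed under experimental conditions, from a line kept in the lowland for several generations. The high altitude group was 3 free-ranging pigs at an average of 4000 m in the Tibetan highland. Altitude, feeding, housing, place and the history of the line changed together and cannot be told apart, and the animals' age was not given in the sources used here.

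Hyaluronan is a long sugar chain of the extracellular matrix, built at the cell membrane by HAS enzymes from UDP-glucuronic acid and UDP-N-acetylglucosamine. HYAL2, anchored to the cell surface, cuts long chains into shorter ones, and the lysosomal enzyme HYAL1 cuts these further. CD44 is the main surface receptor, LYVE1 is a receptor of lymphatic endothelium and some macrophages, and HMMR binds hyaluronan and also takes part in the mitotic spindle. In skeletal muscle, hyaluronan lies in the connective tissue around fibres and in the fascia.

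Relative depth, read from the spacing of the lowest values, was 0.878 to 0.998 at low altitude and 0.860 to 1.22 at high altitude, and absolute depth is unknown. Of 11 skeletal muscle markers, 3 had a row matched by symbol. Their summed FPKM was 16636 to 18832 in the low altitude libraries and 17622 to 22833 in the high altitude libraries. High altitude library 1 stood apart in its makeup. The summed FPKM of 4 slow fibre markers was 3106 to 4707 at low altitude, against 10493, 2751 and 6874 in high altitude libraries 1, 2 and 3. The sum of 6 fibroblast markers was 713 to 1098 at low altitude, against 256, 987 and 875 in high altitude libraries 1, 2 and 3. COL3A1, the most abundant of them, was at 37.9 FPKM in high altitude library 1, against 345 to 568 FPKM in the others. DCN was at 181 FPKM there, against 262 to 341 FPKM in the others, while PDGFRA, at 2.51 FPKM, was lower in low altitude library 3 (2.33 FPKM). Over all genes, limma with Benjamini-Hochberg adjustment called 23 of 10005 tested genes at an adjusted p under 0.05, of which 16 were higher and 7 lower at low altitude. The count was 6, 21 and 4 without low altitude library 1, 2 or 3, and 17, 11 and 4 without high altitude library 1, 2 or 3. With each library rescaled to a common total, 26 genes were higher and 6 lower.

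HYAL2 had the highest mean FPKM of the 8 members over the 6 libraries and the largest log2 difference between the altitudes. Its FPKM was 12.6, 11.6 and 13.0 in low altitude libraries 1, 2 and 3, against 3.56, 5.01 and 4.99 in high altitude libraries 1, 2 and 3. Every low altitude library was above every high altitude library, and the spread inside each group was small beside the gap between them. The means were 12.4 ± 0.771 at low altitude and 4.52 ± 0.828 at high altitude (SD, n = 3 each), a 2.74-fold ratio. As log2(FPKM + 1), a scale that shrinks the differences of low genes, the low minus high difference was 1.29 (SE 0.16). Of the tested genes, 71 had a larger difference in that direction. The median difference over all tested genes was 0.04. Without high altitude library 1, the high altitude mean was 4.999 FPKM and the ratio 2.48.

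HYAL2 was 1 of the 23 called genes and the only one of the 4 members tested, beside a background of 0.230% of tested genes. Nothing is read from that count, since the difference had chosen the gene. When 1 library was left out, HYAL2 was among the called genes only without high altitude library 1. The difference was smallest there, 1.16, and reached 1.36 without high altitude library 2. In the reference gene table the model of HYAL2 overlaps that of TUSC2, which had no matched row. The libraries were strand-specific, but whether the counting used strand was not stated, so reads of the overlap are uncertain. In bulk muscle, fewer cells of a type and less RNA per cell cannot be told apart. HYAL2 is made by many cell types, endothelium among them, and the 4 blood endothelium markers with a row summed to 38.7 to 54.9 FPKM at low altitude and 31.0 to 53.0 FPKM at high altitude. The 4 smooth muscle markers with a row summed to 106 to 108 FPKM at low altitude and 79.5 to 114 FPKM at high altitude. TAGLN, the most abundant, was at 48.4, 49.0 and 54.5 FPKM at low altitude and 39.5, 43.6 and 42.9 FPKM at high altitude. Its groups did not overlap. MYH11 went the other way, averaging 4.07 ± 0.816 FPKM at low altitude and 6.90 ± 2.55 FPKM at high altitude (SD, n = 3 each). Of the 4 smooth muscle markers, all tested, 2 estimates were above 0, 2 were below, and none passed. Of the 4 endothelial markers, all tested, 1 estimate was above 0 and 3 were below. PECAM1 made up most of that sum. KDR, a receptor for VEGF, was at 1.90, 4.75 and 1.97 FPKM in the low altitude libraries, against 5.74, 7.69 and 7.22 FPKM in the high altitude libraries, without overlap (limma, Benjamini-Hochberg adjusted p = 0.303). The summed level of 2 neutrophil markers was higher at low altitude without overlap, and its values stand beside CD44. The part of cell content in the HYAL2 values was not tested.

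**Figure D1:**
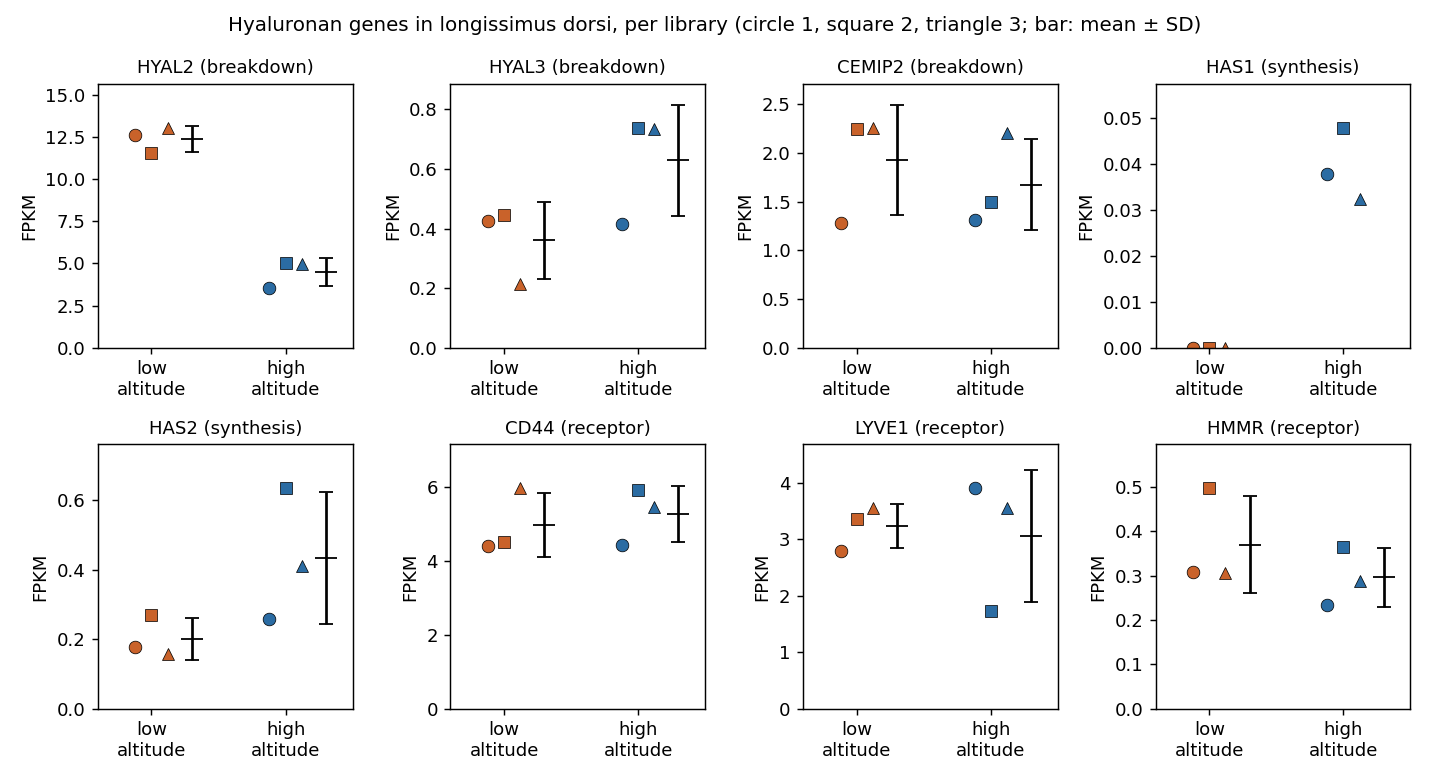
FPKM of the 8 hyaluronan genes with a row in the table, on linear axes from 0, with low altitude libraries on the left (orange) and high altitude libraries on the right (blue) of each panel. Circles, squares and triangles are libraries 1, 2 and 3 and bars are mean ± SD, left out for HAS1, which is listed at 0 at low altitude. HYAL2 lies at 11.6 to 13.0 at low altitude and 3.56 to 5.01 at high altitude. The groups overlap for HYAL3, CEMIP2, HAS2, CD44, LYVE1 and HMMR.

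The other breakdown genes with a row overlapped between the altitudes. CEMIP2, a membrane protein reported to cut hyaluronan at the cell surface, was at 1.28, 2.24 and 2.26 FPKM in the low altitude libraries, against 1.31, 1.50 and 2.2 FPKM in the high altitude libraries. The groups overlapped, and each had libraries at both ends of the range. The means were 1.93 ± 0.561 at low altitude and 1.67 ± 0.467 at high altitude (SD, n = 3 each), and the low minus high log2 difference was 0.13 (SE 0.20). HYAL3, a relative of HYAL2 from the same gene cluster, was at 0.425, 0.445 and 0.213 FPKM at low altitude, against 0.415, 0.738 and 0.734 FPKM at high altitude. Its groups overlapped through high altitude library 1, and it lay under the level needed for testing, 1 FPKM or more in 3 or more libraries. In the reference gene table the HYAL3 model overlaps that of NAT6, now named NAA80, so the division of their reads is uncertain.

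Set side by side within each library, the breakdown genes differed in their mix. HYAL2 made up 88.1, 81.1 and 84.1% of the summed FPKM of HYAL2, HYAL3 and CEMIP2 in the low altitude libraries, against 67.3, 69.1 and 63.0% in the high altitude libraries. The sum itself was 14.3, 14.2 and 15.5 FPKM at low altitude and 5.29, 7.25 and 7.92 FPKM at high altitude. HYAL2 stood at 5.15 to 9.86 times CEMIP2 in the low altitude libraries and at 2.27 to 3.34 times in the high altitude libraries. These ratios carry the HYAL2 difference that chose the set, and they do not depend on the scaling of a library.

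**Figure D2:**
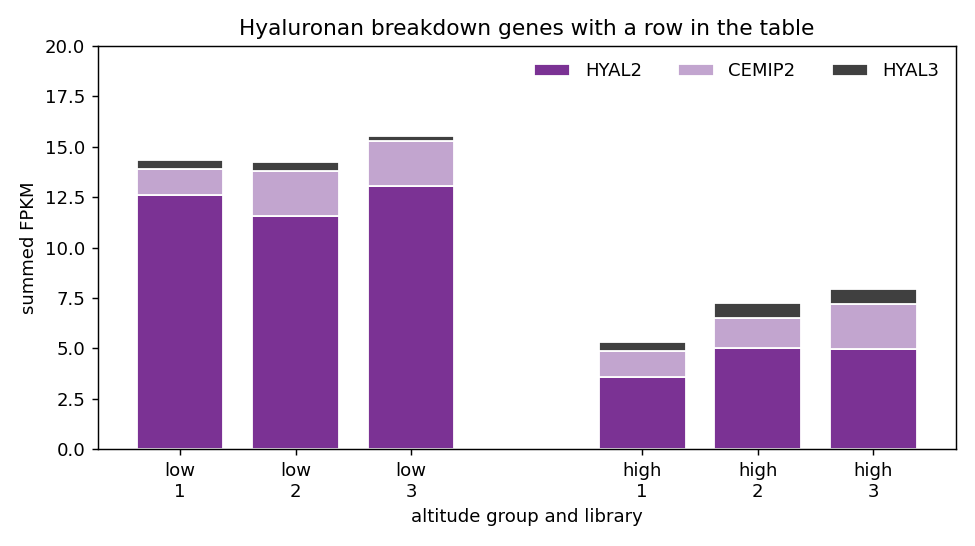
Summed FPKM of the 3 breakdown genes with a row, stacked per library, with the low altitude libraries on the left and the high altitude libraries on the right. The total runs from 14.2 to 15.5 at low altitude and from 5.29 to 7.92 at high altitude, and the HYAL2 segment carries most of the gap.

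Transcripts of the synthases were scarce in every library. HAS2, the synthase most used in many adult tissues, was at 0.177, 0.270 and 0.157 FPKM in the low altitude libraries, against 0.258, 0.633 and 0.409 FPKM in the high altitude libraries. The groups overlapped narrowly, since low altitude library 2 lay just above high altitude library 1. The means were 0.201 ± 0.0605 at low altitude and 0.433 ± 0.189 at high altitude (SD, n = 3 each), a ratio of 0.465, and HAS2 was not tested at this level. The high altitude library with the least HAS2 was library 1, which also had the lowest fibroblast marker sum. The part of fibroblast content in the HAS2 values was not tested. Without that library the high altitude mean was 0.521 FPKM.

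HAS1, another synthase, was at 0 in each of the 3 low altitude libraries in the table, against 0.0378, 0.0478 and 0.0323 FPKM in the high altitude libraries. Multiplied by relative depth, the 3 high altitude values became 0.0426, 0.0411 and 0.0394, nearly the same number. Nearly equal products are what the same number of fragments in each library would give. No fold is given for it, and a value of exactly 0 need not mean an absent transcript, since 107 genes were listed at 0 in a library and at 5 FPKM or more in another.

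The receptor genes overlapped between the altitudes. CD44 was at 4.41, 4.51 and 5.95 FPKM in the low altitude libraries, against 4.43, 5.90 and 5.44 FPKM in the high altitude libraries. The ranges covered each other almost fully. The means were 4.96 ± 0.862 at low altitude and 5.26 ± 0.753 at high altitude (SD, n = 3 each), with a low minus high log2 difference of −0.07 (SE 0.16). Leukocytes carry much CD44, and low altitude library 3, with the highest CD44, also had the highest summed FPKM of the 4 of 8 macrophage markers with a row, 71.5. That sum was 28.5 and 36.8 in the other low altitude libraries and 35.8 to 52.1 at high altitude. The 2 neutrophil markers with a row summed to 1.17 to 2.76 FPKM at low altitude and 0.265 to 0.749 FPKM at high altitude, without overlap. The 4 lymphocyte markers with a row summed to 2.002 to 5.475 FPKM at low altitude and 3.97 to 5.16 FPKM at high altitude. Both tested ones, CD2 and CD3D, had estimates below 0, but CD2 averaged 1.96 FPKM in both groups (log2 difference −0.13, SE 0.34). Its highest value, 3.85 FPKM, was in low altitude library 3. Under the level for testing, CD79B averaged higher at low altitude and MS4A1 higher at high altitude. CD3D, a subunit of the T cell receptor complex, averaged 1.04 ± 0.0439 FPKM at low altitude and 2.24 ± 0.505 FPKM at high altitude (SD, n = 3 each), without overlap (limma, Benjamini-Hochberg adjusted p = 0.238). The part of leukocytes in the CD44 values was not tested.

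LYVE1 was at 2.80, 3.35 and 3.56 FPKM in the low altitude libraries, against 3.90, 1.73 and 3.56 FPKM in the high altitude libraries. High altitude library 2 was the lowest of all and high altitude library 1 the highest, so the low altitude values lay inside the high altitude range. The means were 3.24 ± 0.395 at low altitude and 3.06 ± 1.17 at high altitude (SD, n = 3 each), with a low minus high log2 difference of 0.10 (SE 0.24). That difference became −0.16 without high altitude library 2. The 5 lymphatic endothelium markers with a row, LYVE1 not counted, summed to 3.74, 6.45 and 5.65 FPKM at low altitude and 3.87, 2.92 and 4.10 FPKM at high altitude. High altitude library 2 was again the lowest in the sum, as in MMRN1, FLT4 and RELN, but the markers differed. PDPN was lowest in low altitude library 1 (1.22 FPKM). PROX1 was lowest in low altitude library 3 (0.470 FPKM) and averaged 0.551 FPKM at low and 0.938 FPKM at high altitude. MMRN1 averaged 1.40 FPKM at low and 0.746 FPKM at high altitude, without overlap (limma, Benjamini-Hochberg adjusted p = 0.374). The part of lymphatic vessels in the LYVE1 values was not tested.

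HMMR, whose transcript is highest in dividing cells, was at 0.308, 0.497 and 0.306 FPKM in the low altitude libraries, against 0.235, 0.366 and 0.288 FPKM in the high altitude libraries. The groups overlapped, and the gene lay under the level for testing. The 6 cycling cell markers with a row were also scarce, with summed FPKM of 2.95 to 4.77 at low altitude and 2.77 to 4.01 at high altitude. Low altitude library 2 was the highest for HMMR and for the cycling marker sum, but the single markers split. TOP2A, BUB1 and, narrowly, CDK1 were highest there. CCNB1 (0.645 FPKM) and PLK1 (0.600 FPKM) were highest in low altitude library 3. AURKB was higher at high altitude without overlap, at 0.977, 1.06 and 1.30 FPKM against 0.706, 0.774 and 0.615 FPKM at low altitude.

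In order of mean FPKM over the 6 libraries, the members ran HYAL2 (8.46), CD44 (5.11), LYVE1 (3.15), CEMIP2 (1.80), HYAL3 (0.495), HMMR (0.333), HAS2 (0.317) and HAS1 (0.0197). CD44 was above LYVE1, LYVE1 above CEMIP2 and CEMIP2 above HYAL3 in all 6 libraries. The order of HYAL2 and CD44 changed with the group: HYAL2 was above CD44 in all 3 low altitude libraries and below it in all 3 high altitude libraries. That change carries the HYAL2 difference that chose the set. The margin was small in high altitude library 3, with HYAL2 at 4.99 and CD44 at 5.44 FPKM. HMMR was above HAS2 in all 3 low altitude libraries and below it in all 3 high altitude libraries. Both lay under the level for testing, and in high altitude library 1 they were at 0.235 and 0.258 FPKM, so their order is uncertain. HYAL3 was above HMMR in 4 of the 6 libraries, so that step of the order did not hold beyond the spread. Of all genes in the table, 13.2% had a higher mean than HYAL2 and 48.6% had a higher mean than HAS2.

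Other genes of the pathway were read from 5 lists chosen by function, with 47 genes, of which 42 had a row and 25 were tested. None of the 25 passed in limma after Benjamini-Hochberg adjustment across the whole table, 0 higher and 0 lower, beside 0.230% of all tested genes. An unadjusted p under 0.05 was found in 2 of the 25, beside 942 of the 10005 tested genes (9.42%). Their median low minus high log2 difference was 0.03, against 0.04 over all tested genes, with 16 estimates above 0 and 9 below. In 2 of the 25 the groups were separate, without overlap, beside 16.1% of all tested genes.

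Among the 8 genes that supply the precursor sugars, all tested, 4 estimates were above 0 and 4 below. UAP1, which makes UDP-N-acetylglucosamine, was at 9.70, 11.7 and 17.0 FPKM in the low altitude libraries, against 5.79, 9.06 and 9.24 FPKM in the high altitude libraries. It was 1 of the 2 genes without overlap, and it did not pass (log2 difference 0.60, SE 0.25, limma with Benjamini-Hochberg adjusted p = 0.506). UGP2, which makes UDP-glucose, averaged 20.4 ± 5.95 FPKM at low altitude and 27.5 ± 2.86 FPKM at high altitude (SD, n = 3 each; limma, Benjamini-Hochberg adjusted p = 0.577). UGDH, which oxidises UDP-glucose to UDP-glucuronic acid, averaged 3.62 ± 0.430 FPKM at low altitude and 4.27 ± 0.864 FPKM at high altitude (limma, Benjamini-Hochberg adjusted p = 0.775). PGM3, a step before UAP1, averaged 3.52 ± 0.282 FPKM at low altitude and 2.91 ± 0.520 FPKM at high altitude (limma, Benjamini-Hochberg adjusted p = 0.690).

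Genes of the lysosomal enzymes that finish hyaluronan breakdown overlapped between the groups, and neither of the 2 tested passed. HEXA, a hexosaminidase subunit, averaged 5.40 ± 0.792 FPKM at low altitude and 4.29 ± 0.917 FPKM at high altitude (SD, n = 3 each; limma, Benjamini-Hochberg adjusted p = 0.674). The glucuronidase GUSB averaged 3.83 ± 1.04 FPKM at low altitude and 3.52 ± 1.27 FPKM at high altitude. The sperm hyaluronidase SPAM1 was listed at 0 in every library, and HYAL4 at 0 in 4 of the 6.

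Another list held 18 genes for proteins of matrix or plasma that bind hyaluronan, or are relatives or helpers of such proteins. Of these, 15 had a row and 5 were tested. HABP2, a serine protease that binds hyaluronan, was at 2.06, 2.43 and 2.38 FPKM in the low altitude libraries, against 1.97, 1.19 and 1.12 FPKM in the high altitude libraries. Its groups did not overlap, and it did not pass (log2 difference 0.45, SE 0.17, limma with Benjamini-Hochberg adjusted p = 0.460). ITIH4, an inter-alpha-trypsin inhibitor heavy chain relative, averaged 4.26 ± 0.172 FPKM at low altitude and 7.10 ± 2.93 FPKM at high altitude (SD, n = 3 each; limma, Benjamini-Hochberg adjusted p = 0.604). The large proteoglycan versican, VCAN, averaged 2.09 ± 0.292 FPKM at low altitude and 1.65 ± 0.824 FPKM at high altitude. ITIH5, the most abundant of the list, was at 6.75 to 10.4 FPKM at low altitude, against 3.49, 13.3 and 13.0 FPKM in high altitude libraries 1, 2 and 3. PTX3, which helps cross-link hyaluronan, averaged 1.89 ± 0.732 FPKM at low altitude and 1.81 ± 0.482 FPKM at high altitude.

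The further receptors and the partners of CD44 and HYAL2 did not pass either. STAB1, a scavenger receptor that takes up hyaluronan, averaged 4.14 ± 0.271 FPKM at low altitude and 3.26 ± 1.36 FPKM at high altitude (SD, n = 3 each; limma, Benjamini-Hochberg adjusted p = 0.720). TLR4, a receptor for bacterial lipid that has also been linked to hyaluronan fragments, averaged 1.17 ± 0.412 FPKM at low altitude and 0.986 ± 0.0700 FPKM at high altitude. LAYN, a hyaluronan-binding membrane protein, averaged 1.08 ± 0.354 FPKM at low altitude and 1.11 ± 0.526 FPKM at high altitude. EZR, RDX and MSN tie the tail of CD44 to actin. RDX and MSN were the most abundant partners, with RDX at 23.6 ± 1.36 FPKM at low altitude and 21.5 ± 1.97 FPKM at high altitude, and MSN at 24.4 ± 3.28 FPKM at low altitude and 22.3 ± 3.84 FPKM at high altitude. EZR averaged 5.09 ± 1.66 FPKM at low altitude and 6.10 ± 0.873 FPKM at high altitude, and MMP14, a membrane protease that sheds CD44, 4.07 ± 1.29 FPKM at low altitude and 5.55 ± 2.48 FPKM at high altitude (limma, Benjamini-Hochberg adjusted p = 0.757 and 0.807).

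**Figure D3:**
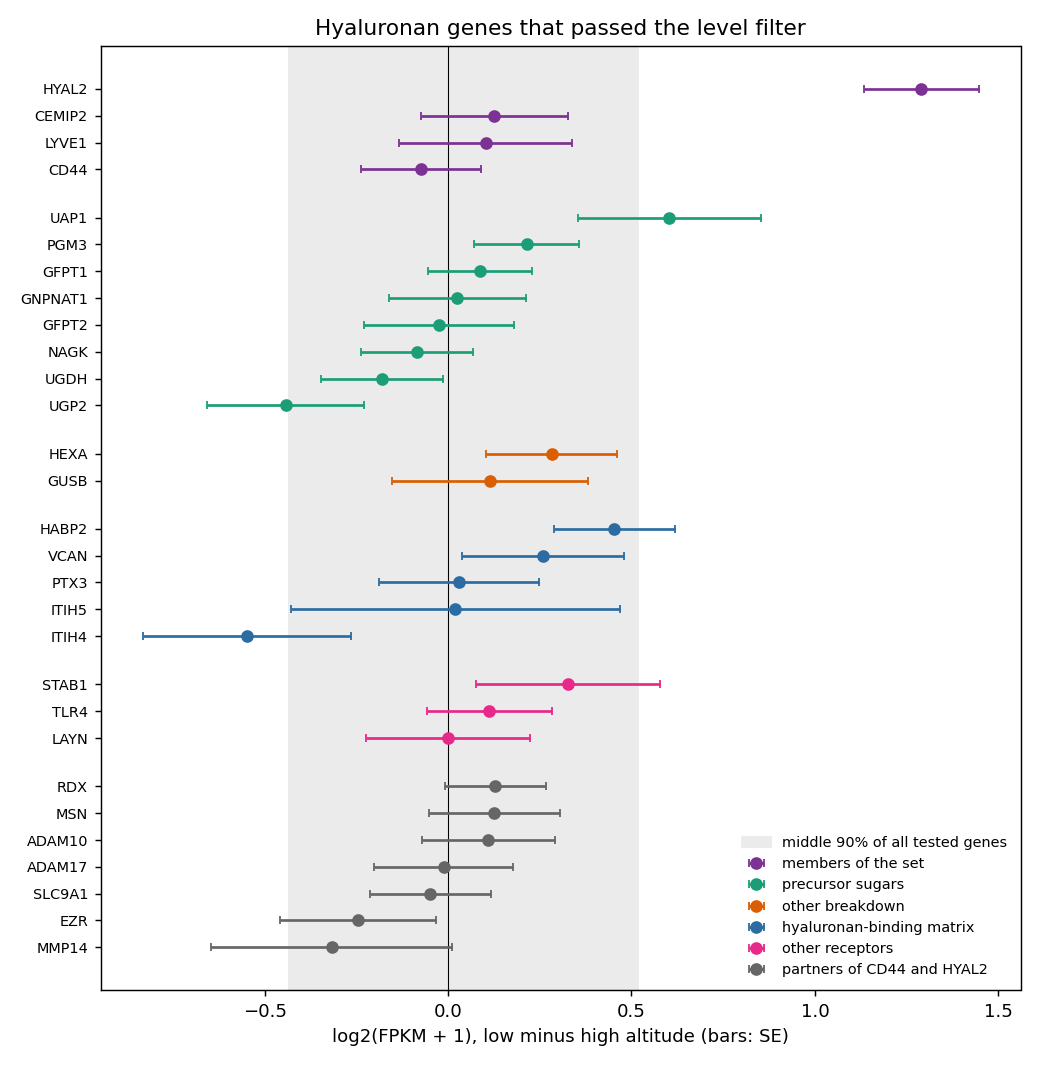
Low minus high altitude difference on the log2(FPKM + 1) scale, with SE, for the 4 members of the set and the 25 other pathway genes that were tested, grouped by role. The grey band holds the middle 90% of all tested genes, from −0.43 to 0.52, and HYAL2, at 1.29, lies outside it, as do UAP1 and UGP2 and ITIH4 by a smaller margin.

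HYAL2 lies in a dense gene cluster, and its nearest genes were read to see whether the difference extended along the chromosome. The 8 nearest protein-coding genes with a row on each side, taken in the order of the Sscrofa11.1 RefSeq gene table, gave 16 neighbours, of which 13 were tested. None of the 13 passed in limma with Benjamini-Hochberg adjustment, beside 0.230% of all tested genes. An unadjusted p under 0.05 was found in 2 of the 13, beside 9.42% of all tested genes. In 3 of the 13 the groups were separate, without overlap, beside 16.1% of all tested genes.

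RASSF1, a tumour suppressor gene and the nearest tested neighbour on the far side of TUSC2, was at 7.08, 6.81 and 7.19 FPKM in the low altitude libraries, against 4.16, 4.71 and 5.44 FPKM in the high altitude libraries. All low altitude libraries were above all high altitude libraries, and the gene did not pass (log2 difference 0.48, SE 0.13, limma with Benjamini-Hochberg adjusted p = 0.335). On the other side, NAA80, an actin acetyltransferase gene, averaged 1.03 ± 0.187 FPKM at low altitude and 0.851 ± 0.446 FPKM at high altitude (SD, n = 3 each; limma, Benjamini-Hochberg adjusted p = 0.858). LSMEM2 had an estimate of the opposite sign, at 2.29, 4.60 and 1.60 FPKM in the low altitude libraries and 4.76, 4.92 and 5.28 FPKM in the high altitude libraries (log2 difference −0.72, SE 0.27, limma with Benjamini-Hochberg adjusted p = 0.477). DCAF1, the third gene without overlap, averaged 4.01 ± 0.181 FPKM at low altitude and 3.49 ± 0.332 FPKM at high altitude (limma, Benjamini-Hochberg adjusted p = 0.721). The most abundant neighbour, the G protein subunit GNAI2, averaged 31.8 ± 2.90 FPKM at low altitude and 29.2 ± 8.31 FPKM at high altitude.

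The remaining tested neighbours were SEMA3B, SLC38A3, SEMA3F, RBM5, RBM6, HEMK1, MAPKAPK3 and RBM15B, with log2 differences from −0.23 (HEMK1) to 0.22 (SLC38A3). ZMYND10, CACNA2D2 and DOCK3 were under the level for testing. ZMYND10, a gene of motile cilia, was at 0.228, 0.0884 and 0.203 FPKM at low altitude and 0.700, 0.572 and 0.719 FPKM at high altitude.

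**Figure D4:**
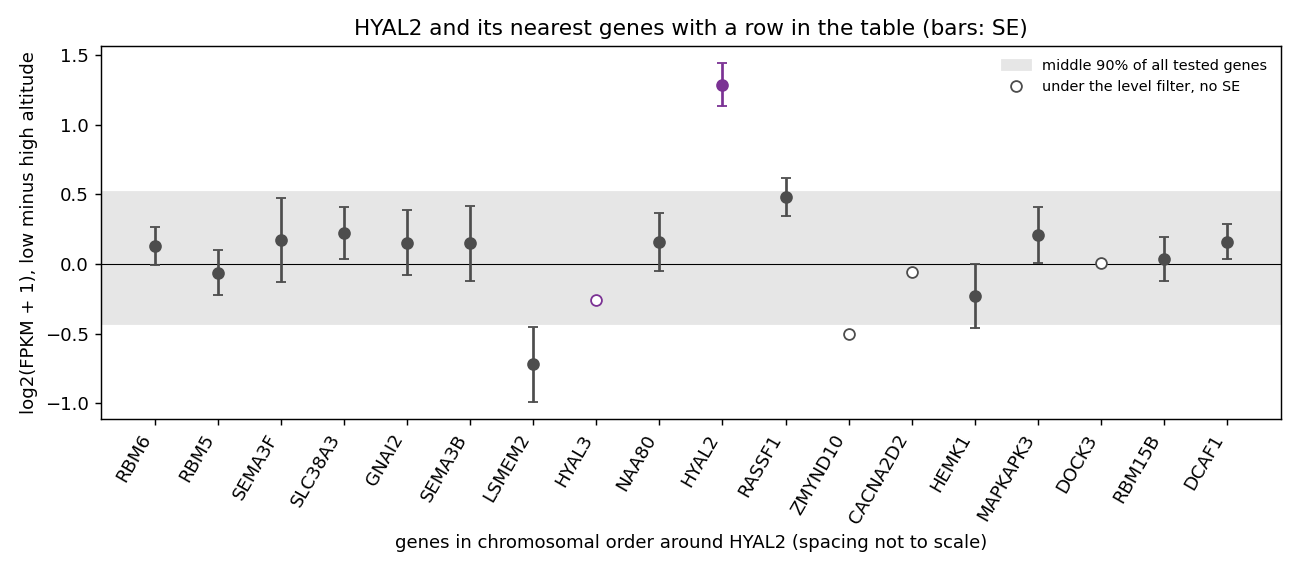
Low minus high altitude difference on the log2(FPKM + 1) scale for HYAL2, HYAL3 (purple) and 16 neighbouring genes with a row, in chromosomal order with spacing not to scale. Bars are SE, open circles are genes under the level for testing, and the grey band holds the middle 90% of all tested genes. HYAL2 stands at 1.29, its neighbour RASSF1 at 0.48 and LSMEM2 at −0.72.

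Likeness to HYAL2 was measured as Pearson's r of log2(FPKM + 1) over the 6 libraries, among 6715 tested genes with a symbol. Both groups of libraries enter each r, so r carries the gap between the altitudes, and no test is given. The 5 highest were GCN1, a sensor of stalled ribosomes (0.995), MAP2K6, a kinase that activates p38 (0.993), the zinc finger factors KLF10 (0.993) and KLF13 (0.991), and RADIL (0.987). MAP2K6 was at 4.87, 4.82 and 4.82 FPKM in the low altitude libraries, against 2.45, 2.69 and 2.82 FPKM in the high altitude libraries. KLF13 was at 7.84, 8.60 and 9.50 FPKM in the low altitude libraries, against 2.55, 3.89 and 3.77 FPKM in the high altitude libraries. In both, high altitude library 1 was the lowest, as it was for HYAL2. The 3 lowest were ACBD6, an acyl-CoA binding protein gene (−0.982), the mitochondrial protease OMA1 (−0.982) and ND5, a complex I subunit of the mitochondrial genome (−0.977).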

How the data were processed

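The authors deposited 1 table of FPKM for 25322 Ensembl pig genes in 6 libraries, with each column named as an animal's title. The submitters' processing notes list TopHat2 2.0.11 and also Cufflinks 2.2.1 without saying what each did. Per the labels' protocols the libraries were strand-specific (dUTP). Genome build, annotation and filters: not given in the sources used here, and coordinates are left out. As FPKM keeps no counts, neither count models nor counting intervals were used. A table of Ensembl IDs gave symbols for 11804 genes. Genes said to have a row were matched by symbol, so a gene without a match may still be present under an ID with no symbol.

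Genes at 1 FPKM or more in 3 or more libraries were tested as log2(FPKM + 1), low minus high altitude, with limma 3.58.1 (R 4.3.3, trend, two-sided, Benjamini-Hochberg over 10005 genes, threshold 0.05), after a test on simulated data. P-values measure the spread between these animals. The members and lists were chosen with earlier results of these data known. Named genes were the members, up to 4 per pathway list by unadjusted p and its most abundant gene, the neighbours of HYAL2, and the 5 genes most and 3 least like HYAL2. ZMYND10, SPAM1, HYAL4, KDR, CD3D, TAGLN and MMRN1 were chosen after their values were seen. So were MYH11, PROX1, FLT4, RELN, CD79B, MS4A1 and the single cycling cell markers. A pathway gene listed at the start is not reported here and is left out of the list counts. Alternatives were 2 other pseudocounts, other filters and scalings, limma without trend, a replicate block and leaving out each library.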

Additional observations from a re-analysis of the deposited data

How the results depend on the processing

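HYAL2 stayed higher at low altitude under each of the 15 alternatives, with a log2 difference of 1.16 to 1.45. It was among the called genes in 8 of them. These fits reuse the libraries whose difference chose HYAL2, so they describe the dependence on processing and add no support. It was not called with no filter on low values, with the replicate block, or in 5 of the 6 fits that left out 1 library. The whole-table count of 23 became 6 with no filter, 10 with quantile normalization, 9 with median-of-ratios scaling and 4 to 21 when 1 library was left out. With no filter the adjustment ran over more genes (17070), and the fits that left out 1 library had fewer libraries. The part of either in these counts was not tested. No pairing by the shared numbers was seen. Deviations of same-numbered libraries correlated at −0.02, 0.09 and −0.14, against −0.15 to 0.16 for libraries with unlike numbers. With 3 libraries per group, this check cannot settle whether the numbers pair the animals. The replicate block gave 19 calls. The pathway and neighbour genes gave 0 calls under each of the alternatives, the replicate block included. CD44 and LYVE1 changed sign without high altitude library 2 (0.00073 and −0.16). The log2 differences of HAS1, HAS2, HYAL3 and HMMR depend on the pseudocount; at 0.1 they were −0.48, −0.78, −0.67 and 0.24. Absolute depth is unknown, which limits the members below an FPKM of 1.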
